A study of Mus musculus with 19 samples.

Results

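The genes described here make fatty acids and cholesterol, and 36 of them were followed in liver and duodenum. They were taken by name: 17 genes of fatty acid synthesis, elongation, desaturation and triglyceride assembly, and 19 genes of sterol synthesis and its control, out of 17709 gene symbols on the array. A probe was found for 35 of the 36 genes, and *Me1* was not analysed here. Where a gene had several probes, the one with the highest mean signal in the tissue was used.

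Expression was measured on Illumina Mouse-6 bead arrays in male C57BL/6 mice, with 1 mouse per array and 19 arrays in all. The liver arrays comprised 3 *Hfe-/-* and 2 wild-type samples, and 3 samples of the iron-supplemented and 2 of the control diet. The duodenal arrays comprised 2 *Hfe-/-* and 2 wild-type samples, and 3 iron-diet and 2 control-diet samples. The *Hfe-/-* mice lack Hfe, a protein of iron sensing, in every cell and ate a standard diet like their wild-type controls, whereas the mice of the diet experiment carried an intact *Hfe* gene. By their labels the *Hfe-/-* mice were 10 to 12 weeks old and the wild-type mice 12 to 14 weeks, within each tissue every *Hfe-/-* mouse being the younger, while the methods of the study give 1 age for both, and the labelled age and the genotype cannot be told apart. All mice of the diet experiment were labelled 16 to 18 weeks, and feeding state and time of day at collection are not given in the sources used here.

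Fatty acid synthesis begins in the cytosol, where citrate is split into acetyl-CoA, acetyl-CoA is carboxylated to malonyl-CoA, and fatty acid synthase builds palmitate, which is then elongated, desaturated and esterified. Sterol synthesis also starts from acetyl-CoA and runs through mevalonate, isoprenoids, squalene and lanosterol to cholesterol. Both routes are controlled by the SREBP transcription factors, of which SREBP-1c mainly drives the fatty acid genes and SREBP-2 the sterol genes. The liver is a main site of both routes, and insulin and feeding raise its fatty acid synthesis.

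Values are quantile-normalized log2 bead signals, so a difference of 1 is a doubling of signal, and each test is limma's moderated test with p-values adjusted over all probes detected (detection p under 0.05 on at least 2 arrays) in the comparison. The arrays detected between 12846 and 16965 probes, and arrays of the same group correlated at 0.987 to 0.991 in liver and at 0.971 to 0.992 in duodenum. The *Hfe* probe gave no check of the genotype, since its signal lay near background: 6.73, 6.67 and 6.50 in *Hfe-/-* livers against 6.77 and 6.60 in wild-type livers, and it was detected on 0 of the 9 duodenal arrays. Of 8 hepatocyte markers, between 5 and 6 were detected on each liver array, *Fabp1* and *Tat* being detected on none, and of 6 enterocyte markers measured, 5 were detected on each duodenal array and *Fabp2* on none. In these bulk tissues, fewer cells of a type and less RNA per cell cannot be told apart.

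Dietary iron raised 6 of the 33 members tested in liver and lowered 0, and the fatty acid genes had the larger shift. Of 15 fatty acid genes tested, 14 had a positive log2 fold change and 3 passed the test, namely *Scd1*, *Elovl5* and *Pnpla3*. Of these, *Pnpla3* was detected in no control liver and entered the test only through the iron-diet arrays, where it was high. It is included in the counts here and below, and its call is not independent of that filter. Of 18 sterol genes tested, 15 had a positive log2 fold change and 3 passed, namely *Lss*, *Hsd17b7* and *Sqle*. Among all 14919 probes tested, 1.13% passed as higher and 1.04% as lower. The median log2 fold change was 0.44 over the fatty acid genes and 0.20 over the sterol genes, against -0.01 over all probes tested. *Srebf1* and *Fdft1* were not detected on any liver array and were not tested.

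*Scd1*, the desaturase that turns stearate into oleate, had a log2 signal of 14.31, 14.38 and 14.24 on the iron diet, against 13.57 and 13.79 on the control diet (probe ILMN_1237375). Every iron-diet liver lay above both control livers, and the mean rose 1.55 times (log2 fold change 0.63, standard error 0.09, adjusted p = 0.0188). *Elovl5*, an elongase of polyunsaturated fatty acids, gave 12.07, 12.25 and 12.35 on the iron diet, against 11.67 and 11.67 on the control diet. The 2 control livers were nearly equal and all 3 iron-diet livers were higher, 1.47 times in the mean (log2 fold change 0.55, standard error 0.09, adjusted p = 0.0333). *Pnpla3*, a lipid droplet protein that responds to feeding, was at 6.91, 7.03 and 6.93 on the iron diet, against 6.37 and 6.55 on the control diet. It was detected in 3 of 3 iron-diet livers and in 0 of 2 control livers, so that it entered the test through the iron-diet arrays alone, and with the control signal raised to the lowest signal detected on its array, its level was at least 1.33-fold higher (adjusted p = 0.0334).

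The largest differences among fatty acid genes belonged to genes that did not pass. *Fasn*, fatty acid synthase, had 11.98, 11.99 and 11.73 in iron-diet livers, against 10.23 and 11.32 in control livers. The groups did not overlap, but the 2 control livers lay far apart, and the 2.18-fold difference in means missed the threshold (log2 fold change 1.13, standard error 0.27, adjusted p = 0.0909). *Elovl6*, which elongates palmitate, had 9.06, 8.79 and 8.89 in iron-diet livers, against 7.69 and 8.35 in control livers (log2 fold change 0.89, standard error 0.18, adjusted p = 0.0546). *Acaca*, acetyl-CoA carboxylase 1, had 10.84, 10.64 and 10.63 in iron-diet livers, against 9.51 and 10.16 in control livers (log2 fold change 0.87, standard error 0.18, adjusted p = 0.0564). In each of these 3 genes control replicate 1 was the lowest liver. *Dgat2*, which makes triglyceride from diacylglycerol, was the single fatty acid gene with a negative value, -0.31 (adjusted p = 0.278). The others lay between 0.07 for *Gpam*, an acyltransferase of the first step of glycerolipid synthesis, and 0.56 for *Acss2*, which makes acetyl-CoA from acetate.

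In the sterol pathway, *Lss*, lanosterol synthase, had 8.57, 8.34 and 8.48 on the iron diet, against 7.82 and 7.92 on the control diet (probe ILMN_2614161). All 3 iron-diet livers were higher, 1.51 times in the mean (log2 fold change 0.59, standard error 0.09, adjusted p = 0.0214), whereas a second tested *Lss* probe, ILMN_1228641, gave a log2 fold change of -0.06 (adjusted p = 0.746). *Hsd17b7*, a sterol ketone reductase, had 9.89, 10.11 and 9.94 on the iron diet, against 9.57 and 9.38 on the control diet (log2 fold change 0.51, standard error 0.10, adjusted p = 0.0488). *Sqle*, squalene epoxidase, had 9.81, 9.84 and 9.92 on the iron diet, against 9.50 and 9.22 on the control diet (log2 fold change 0.50, standard error 0.10, adjusted p = 0.0498). The iron-diet livers lay close together in both genes and above both controls, with *Sqle* just inside the threshold. *Insig1*, which holds SREBP in the endoplasmic reticulum and is itself an SREBP target, lay just outside it: it had 9.08, 9.16 and 8.85 on the iron diet, against 8.53 and 8.50 on the control diet (log2 fold change 0.52, standard error 0.10, adjusted p = 0.0502).

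*Hmgcs1*, HMG-CoA synthase, had a log2 fold change of 0.19 (adjusted p = 0.321), *Idi1*, isopentenyl diphosphate isomerase, 0.25 (adjusted p = 0.455), and *Fdps*, farnesyl diphosphate synthase, 0.02 (adjusted p = 0.925). The 3 sterol genes with negative values were *Insig2* at -0.12, *Mvk* at -0.11 and *Ebp* at -0.10, and none of them passed. *Srebf2*, which encodes SREBP-2, had 7.44, 7.28 and 7.37 in iron-diet livers, against 7.21 and 7.25 in control livers (log2 fold change 0.13, standard error 0.08, adjusted p = 0.48).

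At an unadjusted p under 0.05, 8 fatty acid and 7 sterol genes were higher, and *Dgat2* alone was lower, against 7.68% of all probes higher and 8.42% lower. The iron-diet group lay wholly above the control group for 9 fatty acid and 11 sterol genes, and wholly below it for 1 gene, against 15.5% of all probes above and 18.1% below. In single livers, 12, 10 and 12 of the 15 fatty acid genes exceeded both controls in iron-diet replicates 1, 2 and 3, and 14, 13 and 13 of the 18 sterol genes did. The share of all probes that exceeded both controls in a single liver was not computed.

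With 5 arrays the calls rest on single mice. All called genes had groups that did not overlap, so that leaving out an array could not turn their sign. For *Scd1*, *Elovl5* and *Pnpla3* there was no other probe to compare. The fatty acid and sterol genes past the threshold numbered 3 and 2 without iron-diet replicate 1, 0 and 0 without iron-diet replicate 2, 1 and 1 without iron-diet replicate 3, 0 and 0 without control replicate 1, 4 and 0 without control replicate 2, 0 and 0 with median scaling, and 1 and 0 when all 4 liver groups were fitted together, while no setting turned the sign of *Scd1*, *Elovl5*, *Pnpla3*, *Hsd17b7* or *Sqle*.

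**Figure D1:**
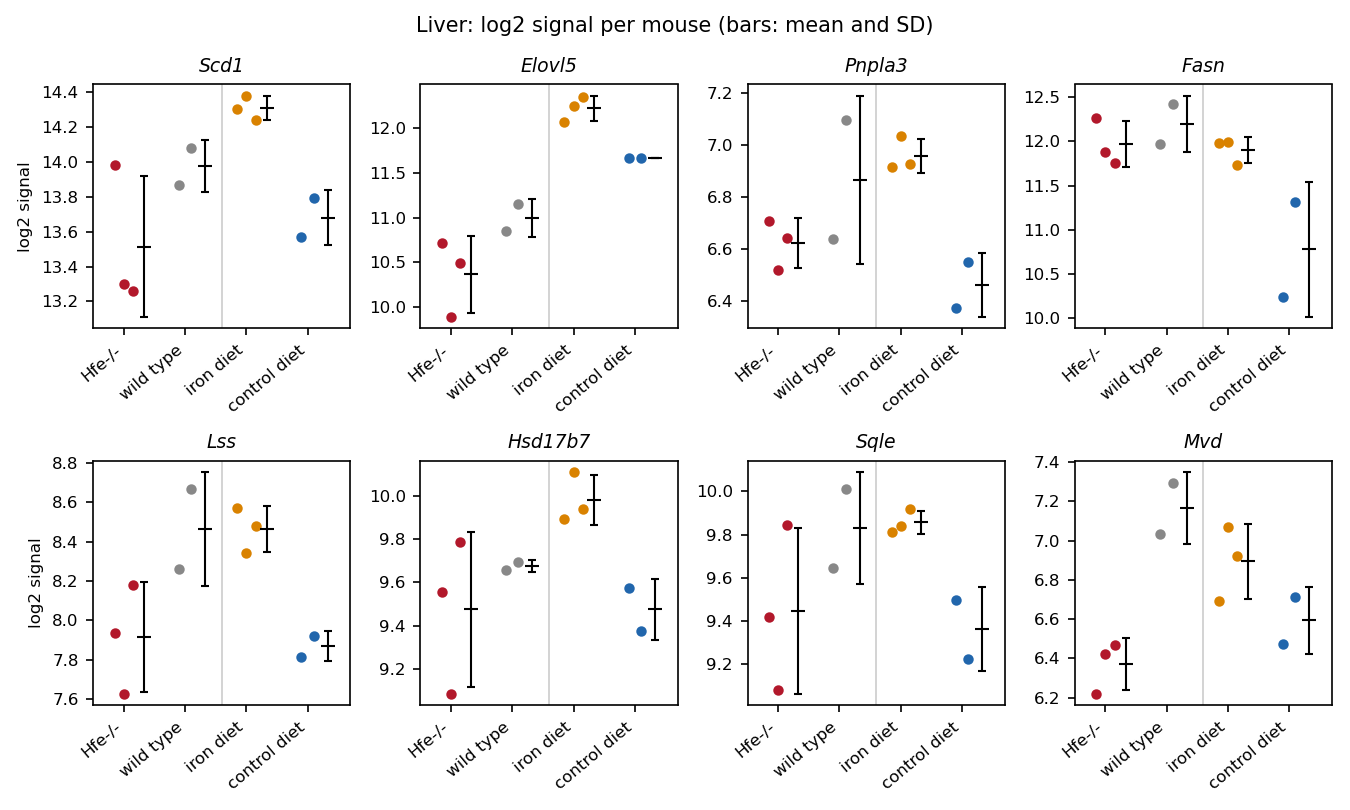
Log2 signal of 8 members in each liver (points), with the mean and SD of each group beside them, for *Hfe-/-* and wild-type mice and for mice on the iron and control diets; each panel has its own vertical scale. For *Scd1*, *Elovl5*, *Pnpla3*, *Lss*, *Hsd17b7* and *Sqle* all 3 iron-diet livers lie above both control-diet livers, and for *Mvd* all 3 *Hfe-/-* livers lie below both wild-type livers.

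The promoters of members that passed in liver on the iron diet are shown as a description. The part of any regulator in their rise was not tested. RefSeq promoters (mouse build GRCm38.p6) were matched for 13 of the 17 fatty acid genes and 16 of the 19 sterol genes, and the 250 bases before the start of transcription were searched on both strands for an SRE-like motif TCACNCCAC, the E-box CACGTG, the CCAAT box and the GC box GGGCGG. No promoter of *Scd1* or *Sqle* is shown. Capitals mark the matches to these motifs, with CCAAT read as ATTGG and GGGCGG as CCGCCC on the other strand.
Lss (chr10:76531355-76531604, plus strand): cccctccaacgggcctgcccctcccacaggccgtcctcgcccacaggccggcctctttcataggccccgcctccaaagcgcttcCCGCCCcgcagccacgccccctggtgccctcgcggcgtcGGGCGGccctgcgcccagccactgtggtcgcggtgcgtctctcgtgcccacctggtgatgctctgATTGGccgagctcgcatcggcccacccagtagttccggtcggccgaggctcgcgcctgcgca
Elovl5 (chr9:77917115-77917364, plus strand): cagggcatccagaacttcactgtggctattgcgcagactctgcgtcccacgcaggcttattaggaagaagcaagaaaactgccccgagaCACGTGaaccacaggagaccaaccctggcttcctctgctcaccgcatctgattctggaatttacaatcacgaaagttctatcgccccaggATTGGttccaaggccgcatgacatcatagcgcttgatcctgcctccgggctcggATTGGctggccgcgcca
Pnpla3 (chr15:84167566-84167815, plus strand): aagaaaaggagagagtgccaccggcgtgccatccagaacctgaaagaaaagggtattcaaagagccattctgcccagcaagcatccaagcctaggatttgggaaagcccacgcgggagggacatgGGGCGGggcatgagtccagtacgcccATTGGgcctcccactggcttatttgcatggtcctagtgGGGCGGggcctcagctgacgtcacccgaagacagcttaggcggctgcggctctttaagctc
Hsd17b7 (chr1:169969206-169969455, minus strand): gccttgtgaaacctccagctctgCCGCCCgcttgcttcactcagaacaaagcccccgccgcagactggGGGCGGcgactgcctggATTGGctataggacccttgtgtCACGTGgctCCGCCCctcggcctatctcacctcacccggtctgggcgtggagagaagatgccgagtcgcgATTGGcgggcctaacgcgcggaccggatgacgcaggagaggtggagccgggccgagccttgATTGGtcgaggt

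*Lss* held 1 CCAAT box and 2 GC boxes, *Pnpla3* 1 CCAAT box and 2 GC boxes, *Elovl5* 1 E-box and 2 CCAAT boxes, and *Hsd17b7* 1 E-box, 3 CCAAT boxes and 3 GC boxes. No SRE-like match lay in these 4 windows, and the single match among all members was in *Hmgcs1*. Where a gene had several promoters each was counted apart, so the shares below are of promoters and not of genes. The CCAAT box occurred in 16 of 21 sterol promoters (76.2%) and 10 of 17 fatty acid promoters (58.8%), against 33.8% of all 32851 promoters. The GC box occurred in 81% of the sterol and 47.1% of the fatty acid promoters, against 32.7% of all, the E-box in 19% and 5.88%, against 6.02%, and the SRE-like motif in 4.76% and 0%, against 1.05%. A match is a run of letters and was not tested as a binding site. Only exact letters were searched, so a window without a match may still hold an element spelled otherwise.

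In *Hfe-/-* liver most members had lower means than in wild-type liver, but 0 of 33 passed limma's test. Of 15 fatty acid genes tested, 11 had a negative log2 fold change (median -0.19), and of 18 sterol genes 17 did (median -0.20), against a median of -0.01 over 14160 probes. Across all probes 0.0212% passed as higher and 0.00706% as lower (3 and 1 probes, against 2 and 7 with median scaling). At an unadjusted p under 0.05, 2 fatty acid and 4 sterol genes were lower and 0 higher, against 4.56% of all probes lower and 4.38% higher. The *Hfe-/-* group lay wholly below the wild-type group for 2 fatty acid and 6 sterol genes, against 13.5% of all probes, and wholly above it for 0, against 11.2%.

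*Mvd*, the decarboxylase that ends the mevalonate steps, had the lowest p. Its signal was 6.22, 6.42 and 6.47 in *Hfe-/-* livers, against 7.04 and 7.29 in wild-type livers. It was detected in 0 of 3 *Hfe-/-* and 2 of 2 wild-type livers, and its level was at least 1.5-fold higher in wild-type liver (adjusted p = 0.114), so that the difference did not pass. *Mvd* entered this test only through the wild-type arrays, where it was high. It is included in the counts for *Hfe-/-* liver, and its p is not independent of that filter. It passed without a detection filter (adjusted p = 0.0263) and with trend and robust moderation (0.0201), and did not pass under the other settings in which it was tested (0.0555 to 0.242). *Lss* had 7.94, 7.63 and 8.18 in *Hfe-/-* livers, against 8.26 and 8.67 in wild-type livers (log2 fold change -0.55, standard error 0.18, adjusted p = 0.435). All 3 *Hfe-/-* values were below both wild-type values, but a further *Lss* probe, ILMN_2444540, not detected on enough arrays to be tested, gave 0.01. *Idi1* had 7.11, 6.75 and 6.90 in *Hfe-/-* livers, against 7.34 and 7.23 in wild-type livers (log2 fold change -0.36, standard error 0.12, adjusted p = 0.431).

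Among fatty acid genes, *Acly*, ATP citrate lyase, had 11.33, 11.02 and 11.10 in *Hfe-/-* livers, against 11.70 and 11.51 in wild-type livers (log2 fold change -0.45, standard error 0.11, adjusted p = 0.339). *Elovl5* had 10.72, 9.89 and 10.50 in *Hfe-/-* livers, against 10.85 and 11.15 in wild-type livers (log2 fold change -0.63, standard error 0.22, adjusted p = 0.474). The groups did not overlap in either gene. *Scd1* had 13.98, 13.30 and 13.26 in *Hfe-/-* livers, against 13.87 and 14.08 in wild-type livers (log2 fold change -0.46, standard error 0.21, adjusted p = 0.579), and *Hfe-/-* replicate 1 lay between both wild-type mice. *Thrsp*, a lipogenic protein induced by thyroid hormone and carbohydrate, went the other way without passing (log2 fold change 0.35, standard error 0.20, adjusted p = 0.689), with 11.59, 12.06 and 11.33 in *Hfe-/-* livers and 11.49 and 11.13 in wild-type livers.

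*Hmgcs1* had 12.92, 11.73 and 12.78 in *Hfe-/-* livers, against 12.98 and 12.98 in wild-type livers (log2 fold change -0.51, standard error 0.31, adjusted p = 0.702), with *Hfe-/-* replicate 2 far below the other 4 livers. *Nsdhl*, a sterol demethylation enzyme, had 11.02, 10.69 and 11.28 in *Hfe-/-* livers, against 11.04 and 10.99 in wild-type livers (log2 fold change -0.02, standard error 0.16, adjusted p = 0.994), and its 2 other probes gave 0.54 and 0.51. The regulators *Insig1*, *Insig2* and *Srebf2* had log2 fold changes of -0.25, -0.17 and -0.05, with overlapping groups. Replicate 2 stood apart from the other *Hfe-/-* livers: 16 of the 18 sterol genes were below both wild-type livers in it, against 12 in replicate 1 and 7 in replicate 3, where 7 others lay above both. Its median shift was -0.53 over the sterol genes, against -0.13 and 0.04 in replicates 1 and 3, although the deposited signals and normalized values exchange the numbers of replicates 1 and 2. The share of all probes below or above both wild-type livers in a single liver was not computed. Among probes of highest SD with at least a 1.4-fold difference, a selection without a test of the kind the methods describe, *Elovl5*, *Hmgcs1*, *Lss* and *Mvd* were lower here, and *Fasn*, *Acaca* and *Elovl6* were higher on the iron diet. Only the probe chosen for each gene was looked up in this selection. The study itself lists *Nsdhl* as higher in *Hfe-/-* liver, the direction of the 2 other *Nsdhl* probes and not of the one used here.

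The sums of 3 marker lists did not overlap between *Hfe-/-* and wild-type livers. Beside the counts below, 0.0212% of all probes passed as higher and 0.00706% as lower. At an unadjusted p under 0.05 by limma, 4.38% were higher and 4.56% lower. The summed signal of 10 fasting and feeding genes was 5890 to 9315 in *Hfe-/-* livers and 4505 to 4818 in wild-type livers, and of 7 tested 0 passed by limma and 2 were higher at an unadjusted p under 0.05, *Angptl4* at 1.21 (adjusted p = 0.21) and *G6pc* at 1.28 (adjusted p = 0.274). Of 6 enterocyte markers 2 were tested and 1 passed, *Apoa4*, an apolipoprotein that liver also makes, at 1.24 (adjusted p = 0.0471), with list sums of 1791 to 2207 in *Hfe-/-* livers and 1117 to 1249 in wild-type livers. Of 8 adipocyte markers 3 were tested and 0 passed by limma, with 1 higher at an unadjusted p under 0.05, *Pnpla2* at 0.32 (adjusted p = 0.398), and sums of 1728 to 1893 in *Hfe-/-* livers and 1530 to 1576 in wild-type livers, *Retn*, *Plin1*, *Fabp4*, *Lep* and *Cidea* being detected on no liver array. The part of these lists in the values of the synthesis genes was not tested.

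**Figure D2:**
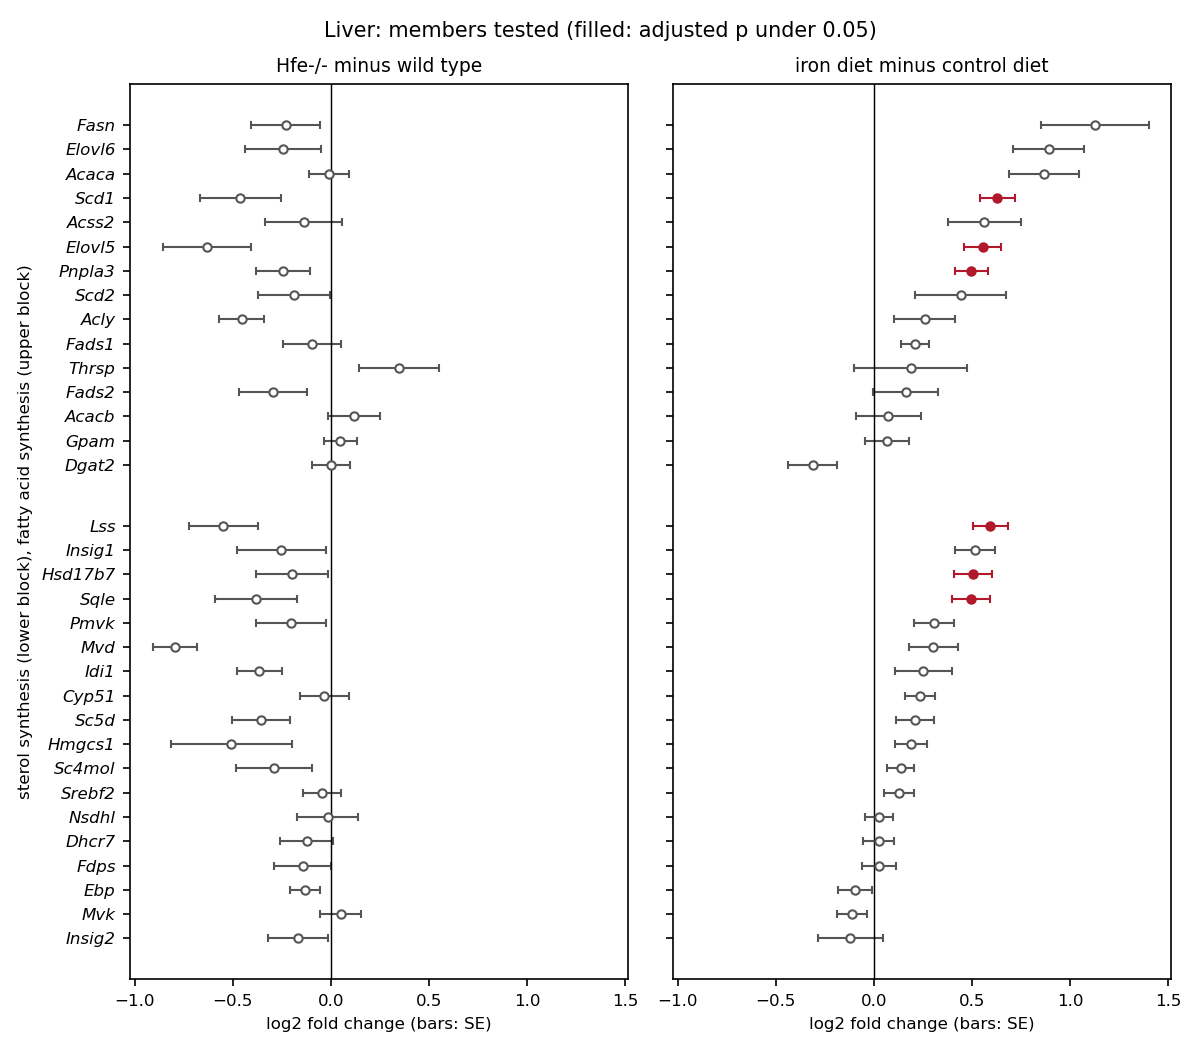
Log2 fold change with its standard error for the 33 members tested in liver, *Hfe-/-* minus wild type on the left and iron diet minus control diet on the right, fatty acid genes above and sterol genes below; filled points have an adjusted p under 0.05. The 6 filled points are all on the right, and 28 of the 33 values on the left are negative.

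The effects of *Hfe* loss and of the diet differed in liver for 2 sterol genes when the difference itself was tested in 1 fit of all 4 liver groups. For *Mvd* the *Hfe* effect minus the diet effect was -1.10 (standard error 0.18, adjusted p = 0.024), and for *Lss* it was -1.14 (standard error 0.22, adjusted p = 0.0391). The *Lss* value comes from probe ILMN_2614161 alone. In each of these effects another *Lss* probe had the opposite sign and lay close to 0, and the difference was not tested with other probes. *Mvd* averaged 6.37 ± 0.13 (SD, n = 3) in *Hfe-/-* and 7.17 ± 0.18 (SD, n = 2) in wild-type livers, and 6.89 ± 0.19 (SD, n = 3) in iron-diet and 6.59 ± 0.17 (SD, n = 2) in control-diet livers. *Mvd* was detected in 0 of 3 *Hfe-/-* and 2 of 2 wild-type livers, and in 3 of 3 iron-diet and 1 of 2 control-diet livers, so that the *Hfe-/-* value is a limit, and with it raised to the lowest detected signal of each array the difference was -0.88, a smaller size that was not tested. Of all 16288 probes tested for this difference, 0.896% passed in either direction. No fatty acid gene passed, with 8 of 15 lower at an unadjusted p under 0.05 by limma and 0 higher, as were 7 of 18 sterol genes with 0 higher, against 6.42% of all probes lower and 6.1% higher, *Pnpla3*, *Elovl5* and *Scd1* being nearest at -0.74 (standard error 0.17, adjusted p = 0.0833), -1.19 (standard error 0.28, adjusted p = 0.0833) and -1.09 (standard error 0.26, adjusted p = 0.0857). *Pnpla3* was detected in 0 of 2 control-diet livers, and raised in the same way its difference was -0.65. The call of *Lss* ends without any of *Hfe-/-* replicate 1, wild-type replicate 2, the iron-diet livers 1, 2 and 3 and the control livers 1 and 2 (adjusted p up to 0.178), and that of *Mvd* without wild-type replicate 2, iron-diet replicate 2 or control replicate 1 (up to 0.123).

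The control groups of the 2 experiments also differed from each other, and these are the same arrays that the effects above are measured against. Wild-type minus control-diet liver was 2.11 (standard error 0.32, adjusted p = 0.00732) for *Thrsp*, 1.42 (standard error 0.29, adjusted p = 0.0243) for *Fasn* and 1.21 (standard error 0.23, adjusted p = 0.0194) for *Elovl6*. In *Thrsp*, wild-type livers had 11.49 and 11.13, against 8.62 and 9.78 in control-diet livers, with the *Hfe-/-* livers at 11.59, 12.06 and 11.33 and the iron-diet livers at 9.26, 9.51 and 9.39. Every liver of the *Hfe* experiment lay above every liver of the diet experiment for this gene. Of the sterol genes *Mvd* was higher in wild-type liver, by 0.57 (standard error 0.14, adjusted p = 0.0441), and *Insig2*, a second SREBP anchor whose liver transcript rises in fasting, was lower at -1.57 (standard error 0.20, adjusted p = 0.0038). *Insig2* had 9.34 and 8.84 in wild-type livers, against 10.75 and 10.57 in control-diet livers. Over all probes 5.03% passed in either direction. Without adjustment, 7 fatty acid and 4 sterol genes were higher and 2 fatty acid and 1 sterol gene lower at a p under 0.05, against 9.94% of all probes higher and 10.1% lower. The call of *Mvd* ended without any 1 of the 4 control arrays (adjusted p from 0.0615 to 0.286), that of *Elovl6* without wild-type replicate 1 (0.0624) or 2 (0.0934) or control replicate 1 (0.156), and that of *Fasn* without wild-type replicate 2 (0.119) or control replicate 1 (0.137), whereas *Thrsp* and *Insig2* passed in each case.

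Of 10 fasting and feeding genes tested for the same difference, 3 passed, all lower in wild-type liver (*Angptl4*, *Cyp4a14* and *G6pc*), and of 11 clock genes 6 passed as higher (*Dbp*, *Per2*, *Per3*, *Cry2*, *Tef* and *Ciart*) and 1 as lower (*Clock*). As given above, 5.03% of all probes passed in either direction. The summed signal of 10 fasting and feeding genes ran from 4505 to 4818 in wild-type livers and from 18543 to 22027 in control-diet livers, and that of 14 clock genes from 8304 to 8471 in wild-type livers and from 2209 to 2563 in control-diet livers, with *Npas2*, *Cry1* and *Bhlhe41* detected on no liver array. Their part in the difference was not tested, and experiment, age and any difference in collection cannot be told apart.

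Within the diet experiment the same lists gave 2 fasting and feeding genes higher and 2 lower of 10 tested, with summed signals of 20944 to 23685 on the iron diet and 18543 to 22027 on the control diet. For this list and those below, 1.13% of all probes passed as higher and 1.04% as lower. *Cyp4a14*, a fatty acid omega-hydroxylase induced by PPARα, had 11.92, 11.75 and 11.84 on the iron diet, against 9.43 and 8.68 on the control diet (log2 fold change 2.78, standard error 0.19, adjusted p = 0.00132), and *Cyp4a10* rose with it (log2 fold change 1.33, adjusted p = 0.0189). *Angptl4*, a lipase inhibitor induced by fasting, was lower (log2 fold change -1.05, adjusted p = 0.00506), as was *G6pc*, glucose-6-phosphatase (log2 fold change -0.62, adjusted p = 0.0102). Of the 10 clock genes tested, 1 passed, *Nr1d2* at -0.53 (adjusted p = 0.0486), while *Dbp* had 2.82 (adjusted p = 0.131), and the list's summed signal was 2375 to 5410 on the iron diet and 2209 to 2563 on the control diet. Of 5 smooth muscle markers 3 were tested and 0 passed, with summed signals of 551 to 1658 on the iron diet and 515 to 554 on the control diet, *Des* and *Tagln* detected on no liver array. Of 6 enterocyte markers 3 were tested and 1 passed, *Apoa4* at 2.71 (adjusted p = 0.000218), with summed signals of 3203 to 4184 on the iron diet and 1074 to 1146 on the control diet, *Fabp2* and *Alpi* detected on no liver array. The part of these lists in the result for the synthesis genes was not tested.

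Other genes of the 2 pathways were taken from a list of 25 fatty acid and 20 sterol genes. On the iron diet in liver, 17 of the fatty acid genes were tested, and 1 passed as higher and 2 as lower, against 1.13% of all probes higher and 1.04% lower. *Elovl3*, an elongase of very long chains, had 7.72, 7.05 and 6.64 on the iron diet, against 9.64 and 9.16 on the control diet. It was lower in all 3 iron-diet livers (log2 fold change -2.26, standard error 0.29, adjusted p = 0.0118), a 4.79-fold fall. *Agpat2*, an acyltransferase of triglyceride synthesis, fell by less (log2 fold change -0.54, standard error 0.08, adjusted p = 0.0226), and *Elovl2*, an elongase of polyunsaturated fatty acids, rose (log2 fold change 0.40, standard error 0.08, adjusted p = 0.0498). Of 10 other sterol genes tested 0 passed by limma, with 4 higher and 1 lower at an unadjusted p under 0.05, against 7.68% of all probes higher and 8.42% lower. Of these, *Stard4*, a sterol carrier, had 0.60 (adjusted p = 0.084) and *Ggps1*, geranylgeranyl diphosphate synthase, -0.39 (adjusted p = 0.108). In *Hfe-/-* liver none of 17 other fatty acid and 10 other sterol genes passed, with 2 and 3 higher and 4 and 2 lower at an unadjusted p under 0.05, against 4.38% of all probes higher and 4.56% lower. *Lpin1*, a phosphatidate phosphatase, had 0.95 (adjusted p = 0.274), *Elovl2* -0.48 (adjusted p = 0.293), and the sterol exporters *Abcg5* and *Abcg8* 0.48 (adjusted p = 0.233) and 0.45 (adjusted p = 0.24).

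In duodenum the iron diet raised 1 member, *Cyp51*, and the sterol genes had the larger shift. *Cyp51*, lanosterol demethylase, had 9.48, 9.20 and 9.62 on the iron diet, against 8.47 and 8.51 on the control diet (probe ILMN_2428754). Every iron-diet duodenum lay above both controls, with a mean 1.92 times as high (log2 fold change 0.94, standard error 0.13, adjusted p = 0.0413). A second *Cyp51* probe, ILMN_2688075, gave 0.47 (adjusted p = 0.532). Of 17 sterol genes tested, 16 were above 0, and their median log2 fold change was 0.26, against 0.01 over all 16373 probes tested, of which 0.177% passed as higher and 0.263% as lower.

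The sterol genes next in p did not pass. *Hsd17b7* had 8.70, 8.71 and 9.07 on the iron diet, against 8.14 and 8.13 on the control diet (log2 fold change 0.70, standard error 0.13, adjusted p = 0.112). *Sc4mol*, the sterol methyl oxidase now named *Msmo1*, had 9.82, 9.76 and 10.17 on the iron diet, against 9.15 and 9.31 on the control diet (log2 fold change 0.68, standard error 0.14, adjusted p = 0.152). The groups were apart in both genes, but another *Hsd17b7* probe had a small negative value. *Hmgcs1* had 12.38, 12.36 and 12.71 on the iron diet, against 11.42 and 12.00 on the control diet (log2 fold change 0.77, standard error 0.19, adjusted p = 0.232), and *Insig1* had 7.67, 7.67 and 7.97 on the iron diet, against 7.21 and 7.42 on the control diet (log2 fold change 0.45, standard error 0.12, adjusted p = 0.298). Control replicate 1 was the lowest duodenum in *Cyp51*, *Sc4mol*, *Hmgcs1* and *Insig1*, whereas in *Hsd17b7* the controls were nearly equal. *Sqle* had 0.59 (adjusted p = 0.372), *Srebf2* 0.26 (adjusted p = 0.59) and *Insig2* 0.05 (adjusted p = 0.915).

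At an unadjusted p under 0.05, 6 sterol genes were higher and 0 lower, against 4.91% of all probes higher and 4.97% lower, and 6 lay wholly above the controls, against 15% of all probes. Of 13 fatty acid genes tested, 11 had positive values (median 0.10) and 0 passed by limma, with 1 higher and 2 lower at an unadjusted p under 0.05. *Scd1* was the lower one of smallest p: it had 7.15, 7.29 and 7.44 on the iron diet, against 7.69 and 7.96 on the control diet (log2 fold change -0.53, standard error 0.12, adjusted p = 0.214). *Elovl5* had -0.31 (adjusted p = 0.412) and *Acacb*, the mitochondrial acetyl-CoA carboxylase, 0.20 (adjusted p = 0.505). Of the 13 fatty acid genes, 2 lay wholly above the controls (*Acacb* and *Elovl6*), against 15% of all probes. Another 2 lay wholly below them (*Scd1* and *Elovl5*), against 12.1%. Both counts were close to those shares. *Thrsp*, *Gpam*, *Srebf1*, *Fdft1* and *Idi1* were not detected on any duodenal array and were not tested.

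The call of *Cyp51* ends without iron-diet replicate 1 (adjusted p = 0.195) or 3 (0.0751) and without control replicate 1 (0.0876) or 2 (0.169), with median scaling (0.0871), with a fit of all 4 groups (0.174) and with a replicate block (0.0668). Of 6 leukocyte markers tested in the same comparison 1 passed as lower, *Cd74*, the median log2 fold change was -0.60, and the summed signal of 7 markers was 1774 to 2199 on the iron diet and 3611 to 4993 on the control diet, with *Ptprc* detected on no duodenal array. Of 6 fasting and feeding genes tested 1 passed, *Cyp4a10* at 2.14 (adjusted p = 0.0182), with list sums of 3608 to 4046 on the iron diet and 2344 to 2884 on the control diet, *Pck1*, *Igfbp1* and *Cyp4a14* being detected on no duodenal array. In this comparison 0.177% of all probes passed as higher and 0.263% as lower. The part of both lists in the result was not tested.

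The promoter of *Cyp51* (GRCm38.p6, RefSeq) is shown as for the liver genes, with the same motifs in capitals. It held 1 GC box and 1 CCAAT box, and no E-box or exact match to the SRE-like letters TCACNCCAC. Sterol elements spelled otherwise were not searched for.
Cyp51 (chr5:4104698-4104947, minus strand): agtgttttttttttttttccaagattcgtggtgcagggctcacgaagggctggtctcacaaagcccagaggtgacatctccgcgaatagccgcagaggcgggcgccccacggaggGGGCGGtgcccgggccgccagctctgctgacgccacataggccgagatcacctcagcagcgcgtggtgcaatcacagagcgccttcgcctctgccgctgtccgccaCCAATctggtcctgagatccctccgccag

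**Figure D3:**
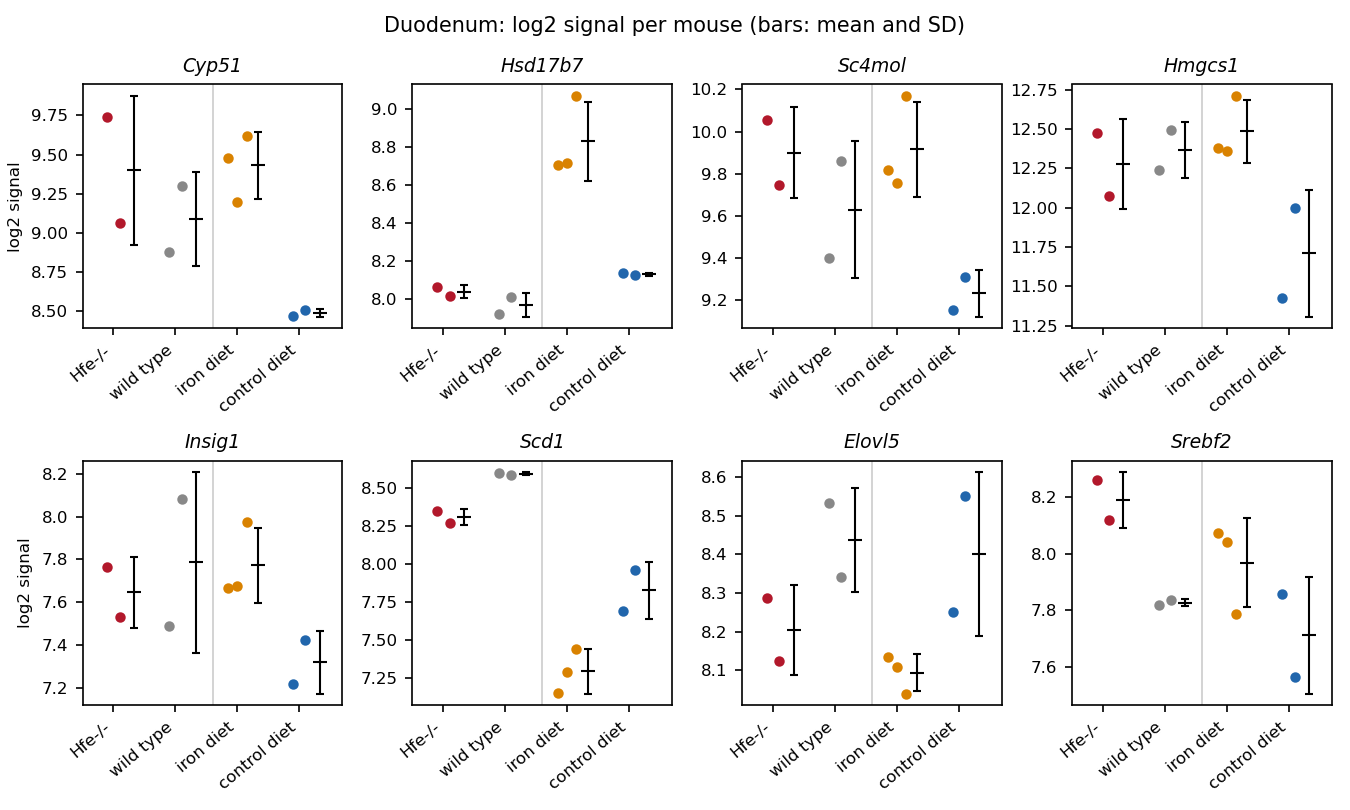
Log2 signal of 8 members in each duodenum (points), with the mean and SD of each group beside them, for *Hfe-/-* and wild-type mice and for mice on the iron and control diets; each panel has its own vertical scale. For *Cyp51*, *Hsd17b7*, *Sc4mol*, *Hmgcs1* and *Insig1* the 3 iron-diet values lie above both control-diet values, and for *Scd1* they lie below.

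In *Hfe-/-* duodenum 0 of 28 members passed limma's test, over 16599 probes of which 0.00602% passed as higher and 0% as lower. Of 12 fatty acid genes tested, 7 had positive values (median 0.15), and of 16 sterol genes 11 did (median 0.05), against a median of -0.02 over all probes. At an unadjusted p under 0.05, 1 fatty acid and 3 sterol genes were higher and 2 fatty acid genes lower, against 3.35% of all probes higher and 3.52% lower. The *Hfe-/-* group lay wholly above the wild-type group for 4 fatty acid and 4 sterol genes and wholly below it for 5 fatty acid and 0 sterol genes, against 14.3% and 20.9% of all probes. *Pnpla3* and *Mvk* were each detected on 1 array only and were not tested here, besides the 5 genes named above.

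*Acacb* had 8.57 and 8.76 in *Hfe-/-* duodenum, against 8.10 and 8.29 in wild-type duodenum (log2 fold change 0.47, standard error 0.14, adjusted p = 0.65). *Srebf2* had 8.26 and 8.12 in *Hfe-/-* duodenum, against 7.82 and 7.83 in wild-type duodenum (log2 fold change 0.36, standard error 0.12, adjusted p = 0.659). The groups were apart in both, but 2 other *Srebf2* probes gave -0.43 and -0.09. *Lss* and *Nsdhl* had 0.36 (adjusted p = 0.69) and 0.32 (adjusted p = 0.718), while *Dgat2* and *Scd1* had -0.49 (adjusted p = 0.71) and -0.29 (adjusted p = 0.712). *Cyp51* had 9.74 and 9.06 in *Hfe-/-* duodenum, against 8.88 and 9.30 in wild-type duodenum (log2 fold change 0.31, standard error 0.26, adjusted p = 0.91), with overlapping groups. *Insig1* and *Insig2* had -0.14 (adjusted p = 0.985) and 0.13 (adjusted p = 0.973). For *Acacb*, *Lss*, *Cyp51* and *Insig2*, too, other probes had negative values where the probe used was positive.

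Markers of neighbouring organs differed between the duodenal samples of this experiment. The summed signal of 9 pancreatic acinar markers was 131397 and 206541 in *Hfe-/-* duodenum, against 143864 and 2564 in wild-type duodenum, so that wild-type replicate 2 stood apart, and that of 8 stomach markers was 77714 and 45565 in *Hfe-/-* duodenum, against 8501 and 77769 in wild-type duodenum, *Atp4a* and *Atp4b* being detected on no duodenal array. Without wild-type replicate 2, 0 fatty acid and 0 sterol genes passed by limma, the medians were 0.13 and 0.17, *Acacb* had 0.56, *Srebf2* 0.37 and *Cyp51* 0.52, and *Insig1* turned to 0.16. The lone wild-type sample was then assumed to vary like the *Hfe-/-* samples. The part of these markers in the values was not tested. With median scaling the medians were 0.40 for the fatty acid and 0.23 for the sterol genes.

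**Figure D4:**
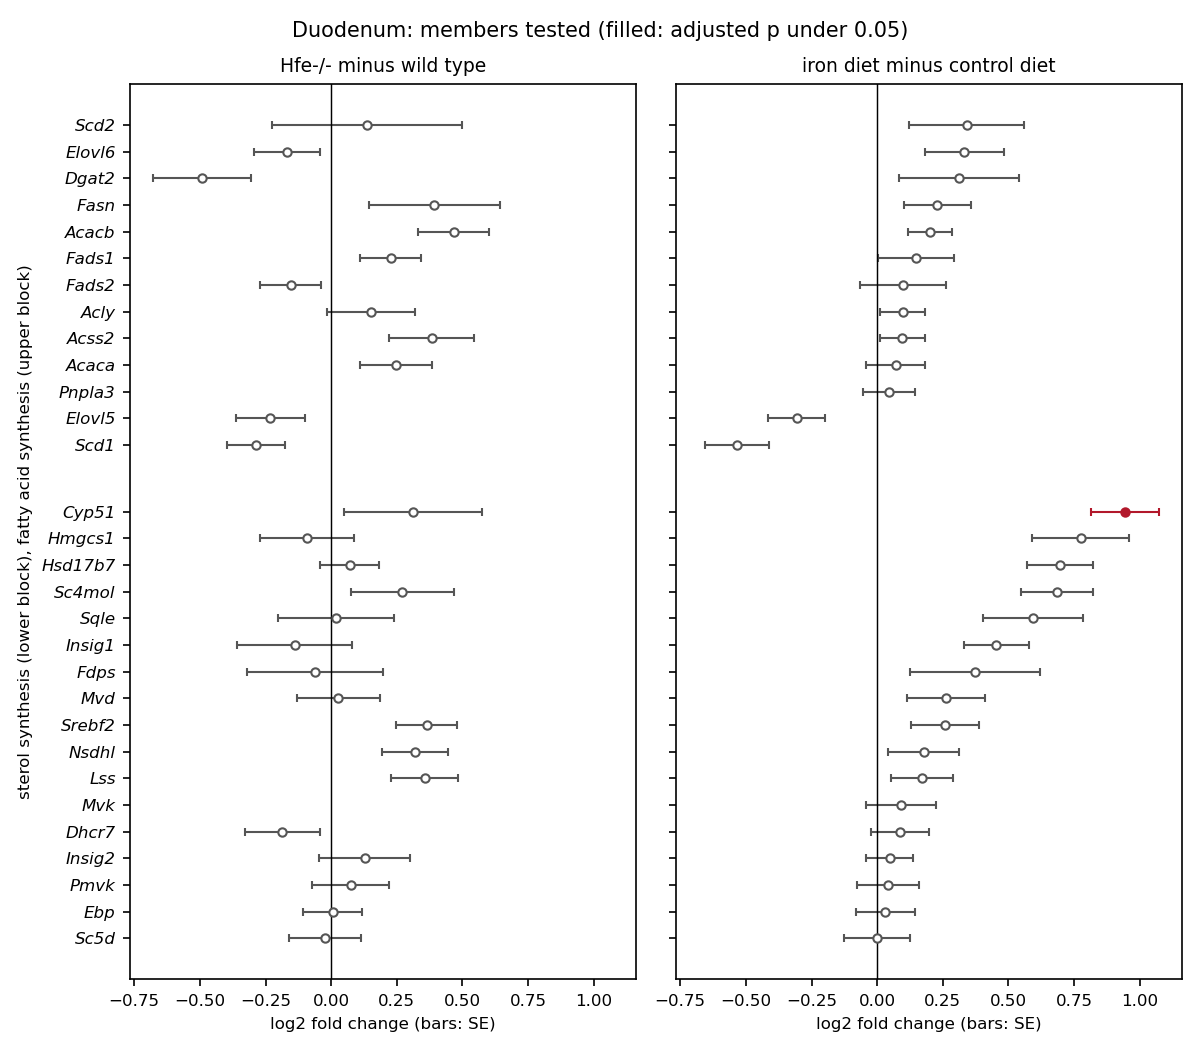
Log2 fold change with its standard error for the members tested in duodenum, *Hfe-/-* minus wild type on the left (28 genes) and iron diet minus control diet on the right (30 genes), fatty acid genes above and sterol genes below; filled points have an adjusted p under 0.05. *Cyp51* on the iron diet is the single filled point, and 16 of the 17 sterol genes lie to the right of 0 on the iron diet.

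No member passed the test of the *Hfe* effect minus the diet effect in duodenum, where 0.00541% of 18474 probes passed in either direction. At an unadjusted p under 0.05 by limma, 2 fatty acid and 2 sterol genes were lower and 0 higher, against 5.06% of all probes lower and 4.1% higher, with *Hsd17b7* at -0.63 (standard error 0.17, adjusted p = 0.361) and *Hmgcs1* at -0.87 (standard error 0.29, adjusted p = 0.441) nearest. The control groups differed for 4 fatty acid genes, all higher in wild-type than in control-diet duodenum, and for 0 sterol genes by limma (3 higher and 1 lower at an unadjusted p under 0.05, against 11.1% and 11.3% of all probes). *Scd2*, the desaturase of tissues other than liver, had 10.52 and 11.64 in wild-type duodenum, against 8.82 and 9.64 in control-diet duodenum, which differ by 1.85 (standard error 0.35, adjusted p = 0.0134). *Acly* differed by 1.08 (standard error 0.13, adjusted p = 0.0023), *Acacb* by 1.02 (standard error 0.11, adjusted p = 0.00113) and *Scd1* by 0.77 (standard error 0.12, adjusted p = 0.00684). Here 9.55% of all probes passed, and the stomach markers, at 8501 and 77769 in wild-type and 779 and 788 in control-diet duodenum, and the clock genes, at 5891 to 6700 in wild-type and 2240 to 2874 in control-diet duodenum, lay apart as well. Of 6 stomach markers tested 3 passed as higher in wild-type duodenum (*Ctse*, *Pgc* and *Tff1*), of 12 clock genes 4 passed as higher (*Dbp*, *Per3*, *Tef* and *Ciart*) and 1 as lower (*Bmal1*), and of 7 fasting and feeding genes 3 passed as lower (*Angptl4*, *G6pc* and *Ppargc1a*). Their part was not tested. The call of *Scd2* ended without wild-type replicate 2 (adjusted p = 0.0505) or control replicate 1 (0.0883).

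Between tissues, *Scd1* was the single member whose difference in response passed the test. Its diet effect was 0.63 in liver and -0.53 in duodenum, and liver minus duodenum was 1.16 (standard error 0.24, adjusted p = 0.0287), where 0.848% of 12971 probes passed in either direction. *Acaca* and *Elovl5* followed at 0.80 (standard error 0.22, adjusted p = 0.119) and 0.86 (standard error 0.25, adjusted p = 0.148), and *Cyp51* went the other way at -0.71 (standard error 0.25, adjusted p = 0.256), none of which passed. Without adjustment, 5 fatty acid genes were higher at a p under 0.05, and 1 fatty acid gene (*Dgat2*) and 2 sterol genes (*Cyp51* and *Sc4mol*) lower, against 4.76% of all probes higher and 6% lower. For the *Hfe* effect 0 members passed by limma, with 0 higher and 4 lower in liver at an unadjusted p under 0.05, against 5.66% of all probes higher and 5.95% lower, and 0.0159% of 12553 probes passed. *Lss* was nearest, at -0.90 (standard error 0.22, adjusted p = 0.125). The methods of the study describe liver and duodenum from the same mice, but the labels do not say which arrays share a mouse, so that all arrays were taken as independent. The *Scd1* call ended without liver iron-diet replicate 2 (adjusted p = 0.0724), liver control replicate 1 (0.165) or 2 (0.0551), duodenal iron-diet replicate 1 (0.0655) or 2 (0.0544) or duodenal control replicate 2 (0.163), with the value between 1.03 and 1.30.

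**Figure D5:**
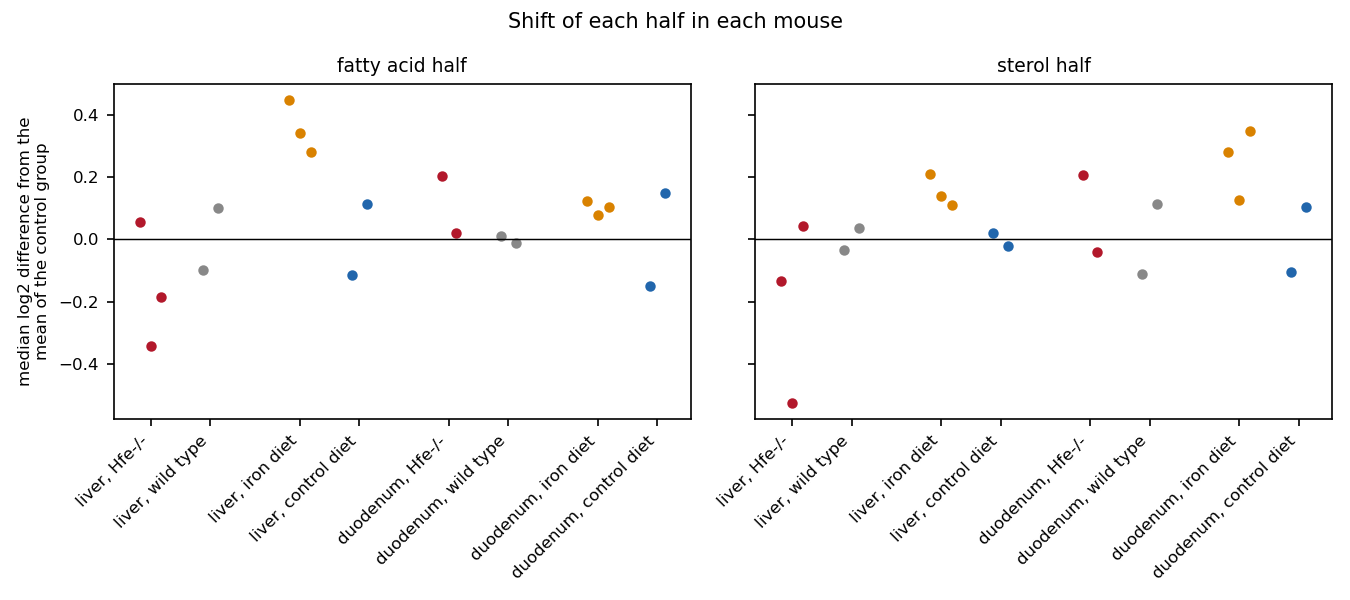
Median log2 difference of the tested members from the mean of the control group, for each mouse (points), for the fatty acid genes on the left and the sterol genes on the right; the control of each tissue and experiment is wild type or the control diet. All 3 iron-diet livers lie above both control livers for both gene groups, and *Hfe-/-* liver replicate 2 has the lowest shift of the sterol genes, at -0.53.

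The levels of the members differed by tissue when all 19 arrays were normalized together, as a description of 10 liver and 9 duodenal arrays. *Scd1* ran from 13.18 to 14.32 (median 13.87) in liver and from 7.02 to 8.50 (median 7.84) in duodenum. *Scd2* was the reverse, with 7.19 to 8.20 (median 7.38) in liver and 8.74 to 11.72 (median 9.62) in duodenum. Neither gene's ranges overlapped between the tissues, *Scd1* being higher in liver and *Scd2* in duodenum. *Fasn* ran from 10.22 to 12.40 (median 11.87) in liver and from 8.49 to 9.95 (median 9.04) in duodenum, and *Thrsp* from 8.70 to 12.01 (median 10.44) in liver, while it was detected on 0 of 9 duodenal arrays. *Hmgcs1* was close in both tissues, with 11.65 to 13.25 (median 12.91) in liver and 11.51 to 12.80 (median 12.39) in duodenum. *Cyp51* did not overlap, with 10.25 to 10.73 (median 10.54) in liver and 8.37 to 9.72 (median 9.14) in duodenum, and its duodenal range was the wider.

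Other pathway genes in duodenum gave 0 calls by limma. On the iron diet, 3 of 17 other fatty acid genes were higher and 1 lower at an unadjusted p under 0.05, and 1 of 11 other sterol genes was higher and 1 lower, against 4.91% of all probes higher and 4.97% lower. *Pklr*, liver-type pyruvate kinase, had 0.38 (adjusted p = 0.262), *Agpat2* 0.57 (adjusted p = 0.314), *Stard4* 0.30 (adjusted p = 0.418) and *Npc1l1*, the intestinal cholesterol importer, -0.26 (adjusted p = 0.458). In *Hfe-/-* duodenum each list had 1 higher and 1 lower, against 3.35% of all probes higher and 3.52% lower. These were *Agpat2* at -0.45 (adjusted p = 0.65), *Agpat3* at 0.31 (adjusted p = 0.703), *Stard4* at -0.54 (adjusted p = 0.645) and *Npc2*, a lysosomal sterol carrier, at 0.54 (adjusted p = 0.711).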

How the data were processed

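Liver and duodenal RNA of individual mice was hybridised by the authors to Illumina Sentrix Mouse-6 bead arrays. The deposited signal tables hold a bead intensity per probe, not normalized, and a detection p-value from the scanner software, per the file headers. The authors also deposited log2 values, quantile-normalized in Chipster, and left out 1 divergent duodenal *Hfe-/-* sample. In liver the deposited log2 values correlated with the signals at 0.9997 to 1 with *Hfe-/-* replicates 1 and 2 exchanged, and these 2 gave 0.9870 and 0.9869 as numbered. In duodenum the deposited values did not follow the probe identifiers and were not used.

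The 46643 entries gave 46632 probes after averaging 11 duplicates, of which 29976 had 1 gene symbol and 10 had several, and 12 symbols were updated. Intensities were quantile-normalized within each tissue on the log2 scale, and a probe entered a comparison when detected on 2 or more of its arrays. Tests were made with limma 3.58.1 in R 4.3.3, with Benjamini-Hochberg adjustment over all probes tested. Each of the 4 comparisons was fitted on its own groups, and differences of effects in 1 fit of the groups concerned. The code was tested on simulated data. The number of arrays limits the precision. Whether replicate numbers pair the samples is not known, and no slide is given in the headers, so that a slide block was not run. The genes named are members past an adjusted p of 0.05, the 3 of lowest p in each pathway and comparison, the SREBP and INSIG genes, members the study lists, and other pathway genes chosen alike. The members and lists were chosen with earlier results of these data known. Alternatives were other scalings, background correction, detection filters, fits, probes and single arrays left out.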

Additional observations from a re-analysis of the deposited data

Results flagged for a closer look

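The diet effect on *Scd1* differed between tissues by a test of the difference itself. The log2 fold change on the iron diet was 0.63 in liver and -0.53 in duodenum, and liver minus duodenum was 1.16 (standard error 0.24, adjusted p = 0.0287 by limma). The call ended when any 1 of 6 of the 10 diet arrays was left out (adjusted p up to 0.165) and with a replicate block (0.0517). All 3 iron-diet livers lay above both control livers, and all 3 iron-diet duodena lay below both control duodena.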

How the results depend on the processing

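With 2 or 3 arrays a group, the counts of called genes depend on the processing more than the directions do. Outside the settings that leave out an array, 100 counts of members stayed within 1.5 times their main value and 22 did not, and of the values for single genes 390 kept direction and side of the threshold, 40 lost the call, 19 gained it and 18 changed sign. The cause was not tested. Dim probes limit *Pnpla3* and *Mvd*, which were not detected in 1 group.

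With median scaling the calls were 0 fatty acid and 0 sterol genes for the liver diet effect, 0 sterol genes for the duodenal diet effect and for the liver *Hfe* minus diet effect, 1 fatty acid and 1 sterol gene for wild-type minus control-diet liver, and 0 fatty acid genes for wild-type minus control-diet duodenum, and the medians in *Hfe-/-* duodenum were 0.40 (fatty acid) and 0.23 (sterol). Without a detection filter 6 fatty acid genes were called on the diet in liver and 1 sterol gene (*Mvd*) in *Hfe-/-* liver, and the fatty acid median in *Hfe-/-* duodenum was 0.024. With detection on every array 1 sterol gene was called for each of the liver diet effect, the liver *Hfe* minus diet effect and wild-type minus control-diet liver. A fit of all 4 groups gave 1 fatty acid and 0 sterol genes in liver and 0 sterol genes in duodenum on the diet. With trend and robust moderation the calls were 5 fatty acid and 1 sterol genes on the diet in liver and 1 sterol gene (*Mvd*) in *Hfe-/-* liver.

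The deviations of same-numbered samples correlated at -0.46 to 0.15. Each control group held 2 arrays, whose deviations mirror each other, so these values cannot show whether the numbers pair the samples. The replicate block gave 6 fatty acid genes for the liver diet effect, 0 sterol genes for the duodenal diet effect, 1 sterol gene for the liver *Hfe* minus diet effect and 0 fatty acid genes for the diet effect in liver minus duodenum. In *Hfe-/-* duodenum, crossed pairs, chosen after seeing the data, gave 0 fatty acid, 0 sterol and 57 of all probes. A fit of the control groups alone, also chosen after seeing the data, gave 3 and 2 genes in liver and 3 and 0 in duodenum.

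Signs turned in *Hfe-/-* liver with other probes of *Lss* (0.0099), *Nsdhl* (0.54 and 0.51) and *Srebf2* (0.044), and on the diet in liver with other probes of *Insig2* (0.064), *Lss* (-0.059) and *Srebf2* (-0.10) and with the replicate block for *Insig2* (0.034). In *Hfe-/-* duodenum they turned with other probes of *Acacb* (-0.052), *Cyp51* (-0.10), *Insig2* (-0.0074), *Lss* (-0.13 and -0.039) and *Srebf2* (-0.43 and -0.085) and with median scaling for *Insig1* (0.011), and on the diet in duodenum with other probes of *Hsd17b7* (-0.025) and *Insig2* (-0.056).

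Leaving out 1 array at a time gave 0 to 4 fatty acid and 0 to 2 sterol genes for the liver diet effect, 0 to 1 sterol genes for the duodenal diet effect, 0 to 2 and 0 to 3 for the liver *Hfe* minus diet effect, 1 to 4 and 1 to 1 for wild-type minus control-diet liver, 0 to 1 sterol genes for wild-type minus control-diet duodenum and 0 to 1 fatty acid genes for the diet effect in liver minus duodenum. A lone sample left in a group was assumed to vary like the other group. Fatty acid medians ran from -0.28 to -0.0039 in *Hfe-/-* liver, from 0.25 to 0.55 on the diet in liver and from -0.084 to 0.20 in *Hfe-/-* duodenum, and sterol medians from 0.13 to 0.22 on the diet in liver and from 0.091 to 0.42 in duodenum. The sterol medians ran from -0.35 to -0.11 in *Hfe-/-* liver and from -0.039 to 0.21 in *Hfe-/-* duodenum, and the fatty acid median on the diet in duodenum from 0.019 to 0.18. Signs turned within these ranges for *Insig2* (-0.42 to 0.082), *Nsdhl* (-0.16 to 0.14) and *Srebf2* (-0.16 to 0.066) in *Hfe-/-* liver, *Insig2* on the diet in liver (-0.28 to 0.034) and duodenum (-0.036 to 0.13), and *Cyp51* (-0.026 to 0.65), *Insig1* (-0.44 to 0.16) and *Insig2* (-0.085 to 0.34) in *Hfe-/-* duodenum.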
